A study of Mus musculus with 9 samples.

Results

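The MYC and MAX network was examined in splenic B cells of leukemic and healthy mice through 9 genes: Myc, Mycn, Max, Mxd1, Mxd3, Mxd4, Mxi1, Mnt and Mlx. These genes were taken by name, and all 9 were found among the 22174 rows of the deposited expression table that also holds the human transgenes, and among the 22154 genes with reads summed here. RNA-sequencing libraries came from 3 mice of each group with 1 library per mouse. The Eµ-MTCP1 animals were Z2551, Z2606 and Z2641. B4376, B4437 and C1594 were the Eµ-TCL1 animals. Z2754, Z2755 and Z2785 were wildtype. Eµ-MTCP1 mice carry human MTCP1 and Eµ-TCL1 mice carry human TCL1A, in both cases driven in B cells by an immunoglobulin heavy chain enhancer. All mice were of the C57/BL6NTac strain, and the Eµ-MTCP1 mice came from 1 founder line. The transgenic mice were matched for age, which the labels do not give, and had a large disease burden. Wildtype mice were littermates without a transgene. B cells were enriched from the spleen with a pan-B-cell kit.

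MYC is a transcription factor that binds DNA only as a dimer with MAX, chiefly at the E-box CACGTG, and drives genes of growth, ribosome assembly, metabolism and cell cycle entry. MXD1, MXD3, MXD4, MXI1 and MNT also pair with MAX, occupy the same sites and recruit SIN3 and histone deacetylases, so that they oppose MYC. MLX is a parallel partner that pairs with some MXD proteins, with MNT and with the glucose-responsive factors MondoA (gene Mlxip) and ChREBP (gene Mlxipl). In normal resting B cells Myc is held low and is induced on activation, and its deregulation by the immunoglobulin enhancer is a classical route to B-cell lymphoma.

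Several genes of the network carry the E-box in their own promoters, which shows what a binding site of these dimers looks like near its own components. RefSeq promoter windows on GRCm38.p6, from 250 bases before to 50 bases after the transcription start, were present for 8 of the 9 genes, Myc being the other, and gave 10 windows. CACGTG, which reads the same on both strands, was found in 4 of the 10, those of 4 genes, against 7.15% of all 32851 promoter windows. The windows of Mycn, Mxd1, Mxd3 and Mxi1 did not hold these letters. The 30 bases around each match are shown 5′ to 3′ on the strand of the gene, with the E-box in capitals.
Mxd4: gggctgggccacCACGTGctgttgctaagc
Mnt: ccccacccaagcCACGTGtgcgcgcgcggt
Mlx: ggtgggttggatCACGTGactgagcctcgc
Max: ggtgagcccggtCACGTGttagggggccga
These lie at chr5:34187912-34187941 (minus strand), chr11:74830789-74830818 (plus strand), chr11:101087238-101087267 (plus strand) and chr12:76962234-76962263 (minus strand). The first base of the E-box stands at position -219 in Mxd4, -123 in Mnt, -40 in Mlx and -3 in Max, counted from the RefSeq start. A match of letters is a description, since no binding was measured in these mice.

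Libraries held between 6447542 and 8033303 reads summed over genes on the transgene-bearing reference, which is made mostly of coding sequences. Levels below are in CPM, a gene's reads relative to the scaled size of its library, and 3 reads, taken as the floor, equal 0.326 to 0.496 CPM. The transgenes matched the labels in the authors' log2-like values. Thus hMTCP1 was at 11.1 to 12.3 in Eµ-MTCP1 mice and at 5.85 to 6.19 in the others, and hTCL1A was at 14.9 to 15.6 in Eµ-TCL1 mice and at 6.04 to 6.96 in the others. Summed B-cell markers were at 6986 to 10620 CPM in every library. Myeloid markers summed to 543 to 2064 CPM in Eµ-MTCP1, 159 to 1415 CPM in Eµ-TCL1 and 930 to 4010 CPM in wildtype mice, with the highest value in Z2755, which alone was sequenced on another lane. T-cell markers stayed at or below 63.2 CPM, NK-cell markers at or below 106 CPM and erythroid markers at or below 217 CPM, the last 2 highest in B4376 and Z2641. Plasma cell markers (Sdc1, Xbp1, Jchain, Prdm1 and Irf4) ranged widely within the transgenic groups, at 346 to 2940 CPM in Eµ-MTCP1, 127 to 1985 CPM in Eµ-TCL1 and 810 to 1359 CPM in wildtype mice.

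No gene of the network passed the test in any comparison. In each of the 3 comparisons, 8 of the 9 genes had enough reads to be tested and 0 were called by edgeR at an adjusted p under 0.05, while 9.48% of all 11165 tested genes were called between Eµ-MTCP1 and wildtype, 9.2% between Eµ-TCL1 and wildtype and 0.0448% between Eµ-TCL1 and Eµ-MTCP1 (0.0269% higher and 0.0179% lower in Eµ-TCL1). The deposited gene count table and the standard Salmon reference also called 0 of the 8, against backgrounds of 10%, 10% and 0.0275% and of 9.66%, 9.2% and 0.047%. At an unadjusted p under 0.05, the count was 1 (Mxd3), 0 and 0, where 25%, 25.1% and 6.42% of all tested genes had such a p. In the other sets of counts it was 2 (Mxd3 and Mxd4), 0 and 0, beside 26%, 25.1% and 6.81% of all genes on the gene count table and 25%, 24.8% and 6.71% on the standard reference. DESeq2 on the same counts called 1 of the 8 genes, Mxd3, between Eµ-MTCP1 and wildtype, where it called 14.8% of all genes, and 0 in the other comparisons, where it called 15.3% and 0.657%. None of these counts of 0, 1 or 2 among 8 genes lies above its background share. Within Eµ-MTCP1 mice Myc and Mxd4 had SDs of 88.2 and 15.8 CPM, against 53.5 and 4.14 CPM in wildtype mice. For Mxi1 the wildtype SD was the larger (2.64 against 0.641 CPM), and for Mnt the SDs were alike (2.39 and 2.48 CPM). Leaving out 1 Eµ-MTCP1 library at a time brought Myc, Mxd3 or Mxd4 past the threshold, a different gene each time. The mouse left out was each time the one apart from its group in that gene. All genes called in these fits were 599 of 11470 without Z2551, 943 of 11458 without Z2606 and 890 of 11440 without Z2641.

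**Figure D1:**
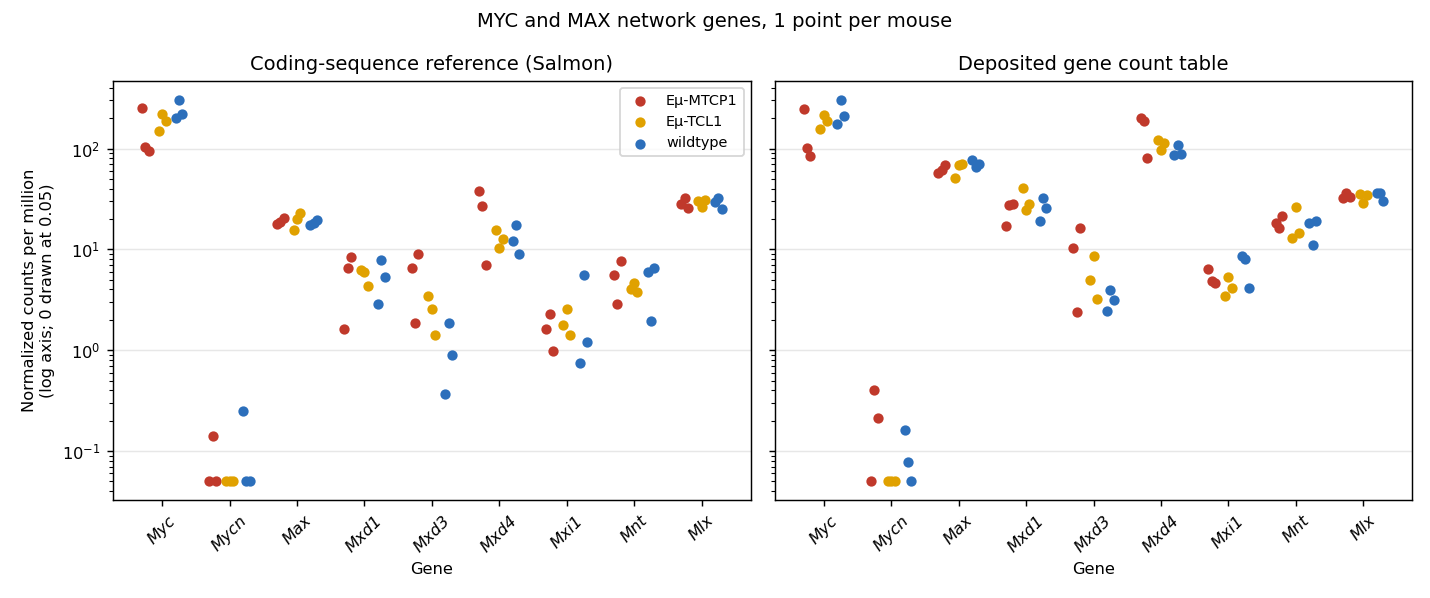
Level of each network gene in each of the 9 mice (y axis, normalized CPM, log scale, libraries at 0 drawn at 0.05; x axis, gene; 1 point per mouse, colored by group), from the coding-sequence reference on the left and the deposited gene count table on the right. Max and Mlx lie in narrow bands, while Myc and Mxd4 spread more widely among the 3 Eµ-MTCP1 mice than in the other groups. Mxd3 spreads among Eµ-MTCP1 mice in both panels and among wildtype mice mainly on the left. Mycn is at or near 0.

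Myc (ENSMUSG00000022346.15, chromosome 15, 61985391 to 61990374, plus strand, GRCm38) was the most abundant gene of the network per transcript length in all 3 groups. Its mean was 70.1 ± 40.8 TPM in Eµ-MTCP1, 96.0 ± 19.9 TPM in Eµ-TCL1 and 146 ± 49.0 TPM in wildtype mice (SD, n = 3 each), where TPM is relative abundance after division by transcript length. These means lay at percentiles 88.0, 90.4 and 92.5 of the tested genes. Wildtype B cells thus carried Myc transcript among the more abundant messages, at a level not exceeded by the group mean of either leukemia.

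By library, with the mice of each group in the order given above, Myc was at 252, 104 and 93.8 CPM in Eµ-MTCP1 mice, at 150, 220 and 190 CPM in Eµ-TCL1 mice and at 199, 299 and 218 CPM in wildtype mice. A pair of Eµ-MTCP1 mice lay below every other mouse, while Z2551 lay within the wildtype range. The Eµ-TCL1 and wildtype ranges overlapped. The fitted difference of Eµ-MTCP1 from wildtype was -0.67 on the log2 scale (SE 0.36, 95% interval -1.46 to 0.12, adjusted p = 0.271), or 0.628-fold, and that of Eµ-TCL1 from wildtype was -0.36 (SE 0.36, interval -1.14 to 0.43, adjusted p = 0.582). Between the leukemias the difference was 0.32 (SE 0.36, adjusted p = 0.903). In bulk RNA, fewer cells of a type and less RNA per cell cannot be told apart, here or for the genes that follow.

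In plasma cells MYC is normally shut off by the repressor BLIMP1 (gene Prdm1). Plasma cell markers summed to 1049, 2940 and 346 CPM in the Eµ-MTCP1 mice, so that the mice with low Myc had the highest and the lowest sums. Of the 5 markers 1, Prdm1, was called higher than in wildtype mice, in Eµ-MTCP1 (2.11, SE 0.49, adjusted p = 0.0227) and in Eµ-TCL1 (1.83, SE 0.48, adjusted p = 0.0401), where 5.49% and 5.07% of all tested genes were called higher. The markers did not all rise, with differences from -0.23 to 2.11 in Eµ-MTCP1 (median 0.52) and from -0.43 to 1.83 in Eµ-TCL1 (median 0.14). Their sums were 1985, 127 and 361 CPM in Eµ-TCL1 mice and 840, 810 and 1359 CPM in wildtype mice. Prdm1 was singled out after its values were seen, and its difference stayed at or above 1.46 over 28 alternatives in each comparison, called in 21 and 16 of them. On the coding reference the call in Eµ-MTCP1 ended without Z2551, Z2606, Z2754 or Z2755 (adjusted p of 0.0544 to 0.112) and that in Eµ-TCL1 without Z2551, B4376, C1594, Z2754 or Z2755 (0.0602 to 0.153). The part of plasma cell RNA in the Myc values was not tested.

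The Myc value of Eµ-MTCP1 mice rested on Z2551. Without that library the difference from wildtype was -1.27 (adjusted p = 0.0236), and on the deposited gene count table it was -1.29 (adjusted p = 0.0283), both past the threshold. With all 9 libraries the gene count table gave -0.67 (adjusted p = 0.284). Over 28 alternatives the value ran from -1.29 to -0.40, always below 0, and was called in 2.

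**Figure D2:**
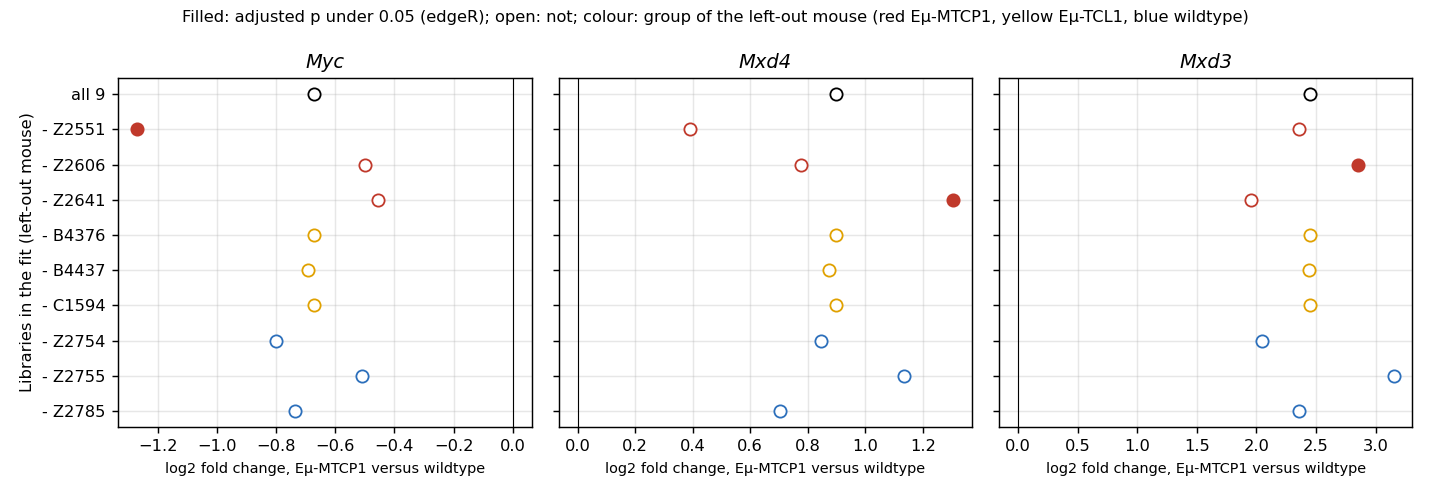
Fitted log2 fold change of Myc, Mxd4 and Mxd3 between Eµ-MTCP1 and wildtype (x axis) with all 9 libraries and with each mouse left out in turn (y axis), on the coding-sequence reference; filled points have an adjusted p under 0.05 in edgeR and color gives the group of the left-out mouse. Each gene is called once, without Z2551 for Myc, without Z2641 for Mxd4 and without Z2606 for Mxd3.

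Myc reads were also divided between annotated transcripts by Salmon. The leading one, Myc-201, held 83.9% ± 4.21 of Myc reads in the 6 transgenic mice and 79.4% ± 6.84 in the 3 wildtype mice (SD; exact permutation test, two-sided, p = 0.238, adjusted over 3 genes 0.298). On the standard reference the leading Myc transcript was another one, Myc-205, at 68.2% against 64.1% (exact permutation p = 0.274). The leading transcript thus depended on the reference, and neither share passed the test.

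Mycn (ENSMUSG00000037169.15, chromosome 12, 12936093 to 12941914, minus strand), a close relative of Myc used chiefly in the embryo and nervous system, was at background. It had 2 reads in wildtype Z2754, 1 read in Eµ-MTCP1 Z2606 and 0 in the other 7 libraries. On this reference no library exceeded the floor of 3 reads, so no fold change was formed. On the gene count table and on the standard reference Z2606 had 4 reads and the other libraries 0 to 2, and Mycn was not tested there either. Mycl, the other paralog, had between 0 and 3 reads in transgenic mice and between 1 and 8 in wildtype mice on the coding reference, where it was not tested.

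Max (ENSMUSG00000059436.13, chromosome 12, 76937269 to 76962201, minus strand), the obligate partner, was among the steadiest genes of the network. It was at 17.9, 18.8 and 20.3 CPM in Eµ-MTCP1 mice, at 15.6, 20.01 and 23.1 CPM in Eµ-TCL1 mice and at 17.6, 18.5 and 19.3 CPM in wildtype mice. All 3 groups overlapped. The difference from wildtype was 0.04 in Eµ-MTCP1 (SE 0.23, interval -0.47 to 0.55) and 0.09 in Eµ-TCL1 (SE 0.23, interval -0.42 to 0.59) on the log2 scale, with signs that turned on the gene count table (-0.18 and -0.15). These intervals reach 1.47-fold and 1.51-fold at their upper ends.

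The leading Max transcript, Max-201, held 77.9% ± 4.88 of Max reads in transgenic and 66.7% ± 11.5 in wildtype mice, the largest such shift among the 3 genes with more than 1 well-covered transcript. It did not pass the exact permutation test (p = 0.0595, adjusted p = 0.179), for which 84 splits allow no p below 0.0119. Wildtype mice spanned 54.1 to 76.5% and transgenic mice 70.7 to 84.6%, so the ranges overlapped. On the standard reference the shares were 72.6% and 63.7% (exact permutation p = 0.179).

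Set against MAX on the same per-length scale, Myc transcript exceeded Max transcript in every library. The ratio of their TPM was 3.71, 1.501 and 1.24 for Eµ-MTCP1, 2.48, 2.98 and 2.19 for Eµ-TCL1 and 3.29, 4.41 and 2.996 for wildtype mice. Z2606 and Z2641 had the lowest ratios of the 9 mice, following their low Myc, and Z2551 lay inside the wildtype range. On the standard reference Z2606 and Z2641 were again lowest (1.85 and 1.57). There Z2551 had the highest ratio of the 9 mice, 5.42, above the wildtype range of 3.26 to 4.43. These ratios are given as a description and were not tested.

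Among the MAX-binding repressors, Mxd3 (ENSMUSG00000021485.14, chromosome 13, 55325168 to 55329823, minus strand), which is made in cycling cells during S phase, had the largest fitted difference of the network. It was at 6.56, 1.847 and 9.08 CPM in Eµ-MTCP1 mice, at 3.46, 2.58 and 1.4 CPM in Eµ-TCL1 mice and at 0.372, 1.845 and 0.906 CPM in wildtype mice, from 3 to 55 reads per library. Z2551 and Z2641 were high, and Z2606 was level with the highest wildtype mouse, Z2755, so that the Eµ-MTCP1 and wildtype ranges touched without crossing. It was the 1 network gene whose groups did not overlap in that comparison, where 29.9% of all tested genes did not. Between Eµ-TCL1 and wildtype 0 of the 8 stood apart against a background of 32.6%, and between the leukemias 0 against 11%.

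The fitted Mxd3 difference was 2.45 in Eµ-MTCP1 against wildtype on the log2 scale (SE 0.77, interval 0.73 to 4.17, adjusted p = 0.0782) and 1.22 in Eµ-TCL1 (SE 0.77, interval -0.47 to 2.92, adjusted p = 0.357). DESeq2 called the former (2.46, SE 0.81, adjusted p = 0.0197), and so did edgeR without Z2606 (2.85, adjusted p = 0.0407). The deposited gene count table, with more reads per library, gave a smaller difference of 1.59 (SE 0.63, adjusted p = 0.143), with 10.2, 2.41 and 16.4 CPM in Eµ-MTCP1 and 2.45, 3.995 and 3.13 CPM in wildtype mice. There the groups overlapped, since Z2606 lay below all wildtype mice. Prelid1 overlaps 105 bases of the Mxd3 locus on the opposite strand, and reads from that stretch may not be told apart in the gene count table. Over 28 alternatives the value ran from 0.98 to 3.15, always above 0, and was called in 3.

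Proliferation genes were high in the same Eµ-MTCP1 mice as Mxd3. A list of 23 such genes summed to 1754, 1032 and 3518 CPM in Eµ-MTCP1 mice, to 1303, 1963 and 1282 CPM in Eµ-TCL1 mice and to 1026, 1486 and 1160 CPM in wildtype mice. Z2641 and Z2551 were high in both measures among Eµ-MTCP1 mice and Z2606 was low in both. On the coding reference Eµ-TCL1 mice did not follow this order, since B4376 had the highest Mxd3 of that group (25 reads, against 21 in B4437) and B4437 the highest sum. With more reads B4437 had the highest Mxd3 of that group too. It was at 8.58 CPM against 4.94 CPM in B4376 on the gene count table, and at 7.26 against 4.39 CPM on the standard reference. Of 8955 genes compared over the 9 libraries, the 3 whose log2 CPM most resembled Mxd3 were Tyms, the thymidylate synthase of DNA synthesis (Pearson r = 0.953), Keap1, a sensor of oxidative stress (r = 0.952), and Plk1, a mitotic kinase (r = 0.944). These r are the highest of many over 9 libraries that also share their depth and scaling, and are a description. The part of cell cycling in the Mxd3 difference was not tested.

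**Figure D3:**
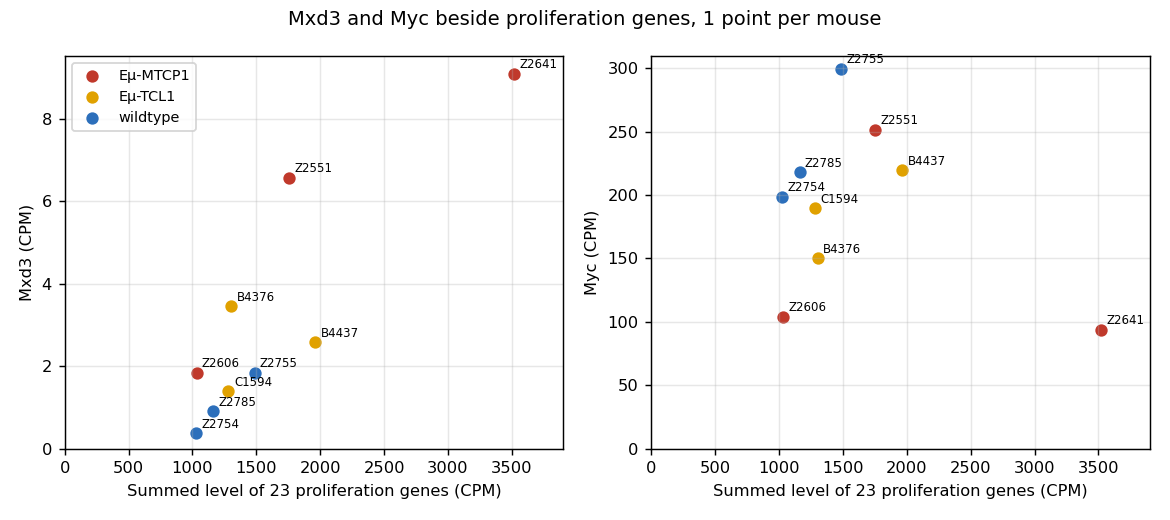
Level of Mxd3 (left) and Myc (right) in CPM (y axes) against the summed level of 23 proliferation genes in CPM (x axes), 1 point per mouse, colored by group, on the coding-sequence reference. Z2641 has the highest proliferation sum (3518 CPM) together with the highest Mxd3 (9.08 CPM) and the lowest Myc (93.8 CPM).

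Mxd4 (ENSMUSG00000037235.13, chromosome 5, 34173883 to 34187720, minus strand), a repressor linked to the quiescent state, was the most abundant repressor of the network in TPM in every group mean. It was at 38.2, 26.7 and 6.94 CPM in Eµ-MTCP1 mice, at 15.5, 10.3 and 12.6 CPM in Eµ-TCL1 mice and at 12.1, 17.3 and 9.06 CPM in wildtype mice. Z2551 and Z2606 lay above all other mice, and Z2641 lay below all others. The difference of Eµ-MTCP1 from wildtype was 0.90 (SE 0.51, interval -0.23 to 2.03, adjusted p = 0.303) and that of Eµ-TCL1 was -0.01 (SE 0.51, interval -1.14 to 1.12).

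Coding sequence captured 9.59% as many Mxd4 reads as the gene count table did, the smallest share among the network genes, so the latter holds more reads behind each value. On it Mxd4 was at 202, 186 and 81.2 CPM in Eµ-MTCP1, at 121, 96.6 and 114 CPM in Eµ-TCL1 and at 85.8, 108 and 88.1 CPM in wildtype mice. The same pair of mice stood above all others and Z2641 below all others. The difference was 0.73 (SE 0.29, interval 0.08 to 1.39, adjusted p = 0.147), a fold of 1.66 that did not pass after adjustment. Without Z2641 it was 1.05 (adjusted p = 0.00867), and on the coding reference 1.31 (adjusted p = 0.0435), both past the threshold. An antisense transcript, Gm42846, overlaps 1001 bases of the Mxd4 locus, and whether counting used the strand is not given in the sources used here.

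In Z2641 the balance of repressors differed from that of the other mice. Mxd4 made up 21.2% of the summed TPM of Mxd1, Mxd3, Mxd4, Mxi1 and Mnt in that mouse, against 37.5 to 73.7% in the other 8. On the standard reference its share was 43.2%, again below those of the other mice, 56.7 to 78.2%. This mouse had the lowest Mxd4 and the highest Mxd3. Mitochondrial reads made up 8.02% of its library, against 4.02% in Z2551, 3.53% in Z2606, 2.91 to 4.58% in the 5 other mice below it and 10.8% in wildtype Z2754. Immunoglobulin reads made up 8.50%, 15.6% and 5.06% of the Eµ-MTCP1 libraries and 3.39 to 9.40% of the others. The part of these differences between libraries in the Myc, Mxd3 and Mxd4 values was not tested. Z2551 combined high Mxd3 with the highest Mxd4, so low Mxd4 did not accompany high Mxd3 in every mouse.

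Mxd1 (ENSMUSG00000001156.9, chromosome 6, 86647042 to 86669161, minus strand), a repressor induced as many cells differentiate and abundant in myeloid cells, showed no detectable difference. It was at 1.64, 6.53 and 8.42 CPM in Eµ-MTCP1 mice, at 6.22, 6.02 and 4.34 CPM in Eµ-TCL1 mice and at 2.85, 7.82 and 5.29 CPM in wildtype mice. All groups overlapped, and the highest wildtype mouse was Z2755, which also had the highest sum of myeloid markers, 4010 CPM. The part of myeloid RNA in Mxd1 was not tested. The differences from wildtype were 0.06 and 0.05 with intervals of about -1.25 to 1.36 for Eµ-MTCP1 and -1.25 to 1.35 for Eµ-TCL1. The gene count table narrowed them to -0.73 to 0.57 and -0.38 to 0.92.

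Mxi1 (ENSMUSG00000025025.14, chromosome 19, 53310518 to 53375810, plus strand), also called MXD2, was the least abundant tested repressor by mean CPM in both transgenic groups, while Mxd3 was in wildtype mice. It was at 1.64, 2.27 and 0.991 CPM in Eµ-MTCP1 mice, at 1.80, 2.58 and 1.40 CPM in Eµ-TCL1 mice and at 0.743, 5.54 and 1.21 CPM in wildtype mice. Only Z2755 stood out, with 51 reads where the other mice had 6 to 21. On the gene count table Z2755 (8.07 CPM) no longer stood apart from Z2754 (8.65 CPM). On the opposite strand, AC133451.2 overlaps 5146 bases and Gm10197 overlaps 201 bases of the Mxi1 locus, so reads of these genes may not be told apart there. Differences from wildtype were -0.61 (SE 0.79) and -0.38 (SE 0.78), and on the gene count table -0.40 and -0.69, none past the threshold. Without Z2755 they turned above 0, to 0.72 and 0.95.

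Mnt (ENSMUSG00000000282.12, chromosome 11, 74830920 to 74845725, plus strand), the broadly expressed antagonist that is present in both resting and dividing cells, was at 5.58, 2.84 and 7.60 CPM in Eµ-MTCP1 mice, at 4.01, 4.67 and 3.78 CPM in Eµ-TCL1 mice and at 5.95, 1.95 and 6.496 CPM in wildtype mice. Z2755 and Z2606 were low and the groups overlapped. The differences from wildtype were 0.16 (SE 0.54, interval -1.05 to 1.36) and -0.20 (SE 0.54, interval -1.41 to 1.004). The first interval reaches from 0.484-fold to 2.57-fold, and on the gene count table from 0.692-fold to 1.92-fold. Its most similar genes over the 9 libraries were the ribosomal protein genes Rps7, Rps20 and Rpl39 (Pearson r = 0.967, 0.954 and 0.953).

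Mlx (ENSMUSG00000017801.15, chromosome 11, 101087277 to 101092207, plus strand), the partner of MondoA and ChREBP, was as steady as Max. It was at 28.2, 32.0 and 25.8 CPM in Eµ-MTCP1 mice, at 30.3, 26.3 and 30.8 CPM in Eµ-TCL1 mice and at 29.2, 32.1 and 25.2 CPM in wildtype mice. The groups covered the same range. The differences from wildtype were -0.01 (SE 0.20, interval -0.45 to 0.43) and 0.01 (SE 0.20, interval -0.43 to 0.45), which reach 1.34-fold and 1.36-fold at their upper ends. Its leading transcript, Mlx-202, held 54.1% of Mlx reads in transgenic and 44.5% in wildtype mice (exact permutation p = 0.298), and on the standard reference 38.7% and 40.4% (exact permutation p = 0.845), with the opposite sign. On the opposite strand, Psmc3ip overlaps 385 bases of the Mlx locus.

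**Figure D4:**
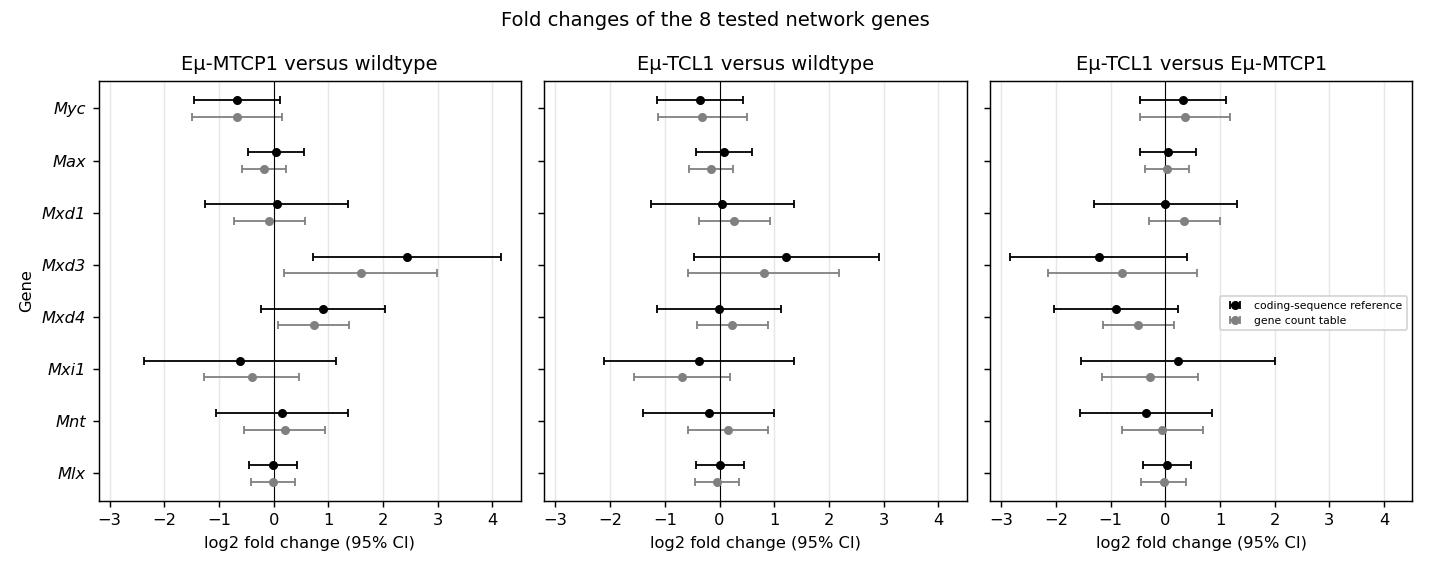
Fitted log2 fold change with its 95% interval (x axis) of the 8 tested network genes (y axis) in the 3 comparisons, from the coding-sequence reference in black and the deposited gene count table in grey. Intervals are narrow for Max and Mlx and wide for the repressors with few reads, and only those of Mxd3 and, on the gene count table, Mxd4 stay clear of 0 in Eµ-MTCP1 against wildtype.

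The order of abundance per length was similar in the 3 groups. In wildtype mice Myc (146 TPM) was followed by Max (40.4 ± 4.85), Mlx (30.4 ± 6.55), Mxd4 (19.4 ± 8.40), Mxd1 (11.4 ± 7.02), Mxi1 (4.54 ± 5.22), Mnt (3.59 ± 1.55) and Mxd3 (1.77 ± 1.51; SD, n = 3). From Max downward, neighbors in that order differed by less than the sum of their SDs, while Myc and Max differed by more. In Eµ-MTCP1 mice Mxd3 (7.90 ± 5.06 TPM) stood above Mxd1 (6.77 ± 4.96), Mnt (3.23 ± 1.66) and Mxi1 (2.05 ± 0.829), by less than its own SD in the case of Mxd1 and Mnt. Mxd4 (27.4 ± 17.96) lay between Max (33.3 ± 2.43) and Mlx (23.5 ± 1.30).

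The genes most like the others were also listed as a description over the same 9 libraries. Myc was closest to Gsto1, Foxred1 and Nfkbid (Pearson r = 0.920, 0.919 and 0.911), the last a regulator of NF-kB. Max was closest to Smg9 (r = 0.965), Slirp and Rab11b, and Mxd1 to Cnpy4 (r = 0.969), Taf9 and Nelfcd. Mxd4 was closest to Irgq (r = 0.883), Selenoo and Fbxo31, Mxi1 to Gnas (r = 0.888), Map3k1 and Fbxw5, and Mlx to Dirc2 (r = 0.954), Tbc1d25 and Aldh4a1. Among the network genes themselves, the strongest relations were negative, between Mnt and Mxi1 (r = -0.849) and between Mnt and Mlx (r = -0.839). Both draw on Z2755, which had the highest Mxi1 (51 reads), the highest Mlx (32.1 CPM) and the lowest Mnt (18 reads). On the gene count table Z2754 had the highest Mxi1 (8.65 CPM) with Mnt at 18.4 CPM, against 11.1 CPM in Z2755. For Myc and Max r was -0.06.

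A list of 7 further network members held 1 call. Mlxip, which encodes MondoA, the partner that takes MLX to glucose-responsive genes, was lower in Eµ-TCL1 than in wildtype mice. It was at 102, 74.8 and 69.3 CPM in Eµ-TCL1 mice, at 226, 351 and 161 CPM in wildtype mice and at 192, 144 and 178 CPM in Eµ-MTCP1 mice. Every Eµ-TCL1 mouse lay below every other mouse, and the Eµ-MTCP1 mice overlapped the wildtype range. Of the 5 tested genes in the list 1 was called lower in Eµ-TCL1, where 4.13% of all tested genes were called lower.

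The Mlxip difference between Eµ-TCL1 and wildtype was -1.58 on the log2 scale (SE 0.29, adjusted p = 0.00674, edgeR) and remained below 0 and past the threshold in all 28 alternatives, from -1.81 to -0.99. Without Z2755, the highest wildtype mouse, it was -1.27 (adjusted p = 0.0224). Between Eµ-TCL1 and Eµ-MTCP1 it was -1.06 (SE 0.28, adjusted p = 0.481), which did not pass, and Eµ-MTCP1 against wildtype gave -0.52 (adjusted p = 0.277). Its effect is therefore not shown to differ between the leukemias.

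Of 3 known targets of MLX and MondoA, 2 were tested and 0 called in either comparison with wildtype, where 9.48% and 9.2% of all tested genes were called, so 2 genes are too few to read a share from. Txnip, which restrains glucose uptake and is the standard readout of MondoA, was at 273 ± 37.4 CPM in Eµ-TCL1, 344 ± 78.9 CPM in wildtype and 354 ± 74.0 CPM in Eµ-MTCP1 mice (SD, n = 3). Its difference from wildtype was -0.34 in Eµ-TCL1 (SE 0.23, adjusted p = 0.41). Arrdc4, an arrestin-like gene also induced by MondoA, was at 0.984, 0.71 and 0.33 CPM in Eµ-MTCP1 mice, at 7.88, 1.35 and 0 CPM in Eµ-TCL1 mice and at 2.23, 3.04 and 4.99 CPM in wildtype mice, from 0 to 57 reads. All Eµ-MTCP1 mice lay below all wildtype mice, and the Eµ-TCL1 mice spanned both ranges. Its difference from wildtype was -2.31 in Eµ-MTCP1 (SE 1.22, adjusted p = 0.27) and -0.15 in Eµ-TCL1 (SE 1.10, adjusted p = 0.953). The other network members Mga, Zbtb17 (MIZ1), Usf1 and Usf2 had differences between -0.17 and 0.55 in both comparisons with wildtype, none called, and Mlxipl had 0 to 2 reads per library.

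Lists of MYC targets, written with the earlier results of these data known, held between 0 and 2 calls each. Of 19 ribosome biogenesis genes 1 was higher in Eµ-MTCP1 and 1 in Eµ-TCL1 than in wildtype mice, of 18 metabolic genes 2 and 1, of 6 translation and chaperone genes 0 and 0, and of 7 genes of cell cycle entry and telomerase 2 and 2. None of these genes was called lower. The background of genes called higher was 5.49% in Eµ-MTCP1 and 5.07% in Eµ-TCL1. These are 613 genes higher beside 446 lower, and 566 beside 461, which turned to 391 beside 730 and 446 beside 593 with library sizes alone as scaling. Median log2 differences were -0.06 and 0.18, 0.28 and 0.29, -0.09 and 0.10, and 0.46 and 0.74 for these lists, beside -0.02 and -0.01 over all genes. The gene count table added calls of E2f2, an activator of S-phase genes (1.05 and 0.92), and in Eµ-TCL1 of Ddx21, a helicase of ribosome assembly (0.67).

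**Figure D5:**
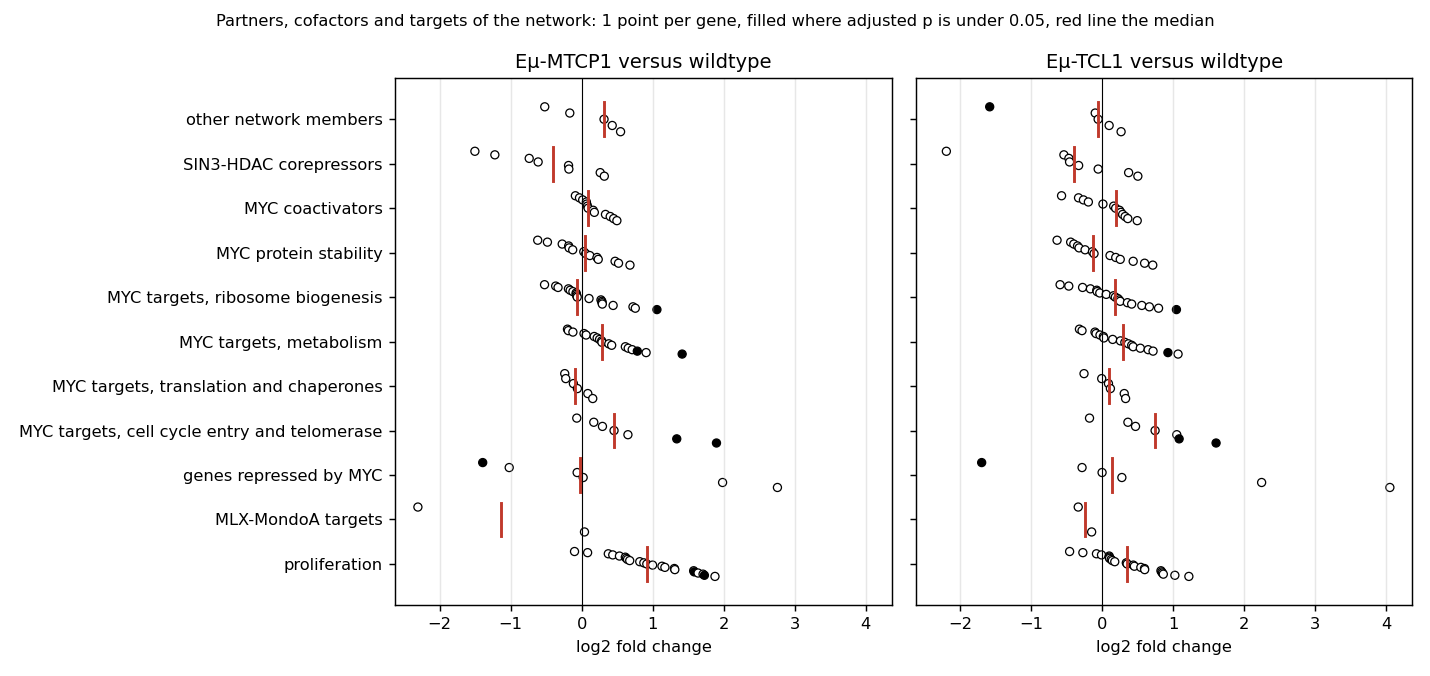
Fitted log2 fold change (x axis) of each tested gene in lists of network partners, cofactors, MYC targets and proliferation genes (y axis), in Eµ-MTCP1 and Eµ-TCL1 against wildtype, with called genes filled and the median of each list as a red line. Few points are filled, and the proliferation list has the highest median in Eµ-MTCP1 (0.92).

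Both genes of cell cycle entry called on the coding reference were cyclins. Ccnd2, the D-type cyclin of B cells, was at 272, 282 and 212 CPM in Eµ-MTCP1 mice and at 256, 175 and 210 CPM in Eµ-TCL1 mice, against 78.6, 105 and 120 CPM in wildtype mice. No transgenic mouse fell into the wildtype range. The differences were 1.34 (SE 0.22, adjusted p = 0.00462) and 1.08 (SE 0.22, adjusted p = 0.0129), and both comparisons share the wildtype mice. Without Z2755 the Eµ-TCL1 value was 1.08 (adjusted p = 0.0514), and without Z2754 it was 0.92 (adjusted p = 0.0576).

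Ccne1, the cyclin of entry into S phase, was at 21.7, 19.9 and 30.1 CPM in Eµ-MTCP1 mice, at 14.1, 22.1 and 22.1 CPM in Eµ-TCL1 mice and at 4.96, 9.44 and 4.68 CPM in wildtype mice. The wildtype mice again lay below all others. The differences were 1.90 (SE 0.35, adjusted p = 0.00814) and 1.603 (SE 0.35, adjusted p = 0.0176). In Eµ-MTCP1 the calls of Ccnd2 and Ccne1 remained in all 28 alternatives, and in Eµ-TCL1 in 22 and 24 of them. Leaving out 1 library ended the Ccne1 call in Eµ-TCL1 for B4437 (1.48, adjusted p = 0.056), C1594 (1.501, 0.06), Z2754 (1.44, 0.0802) and Z2785 (1.43, 0.064).

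Outside the cell cycle, Nop16, a factor of ribosome assembly, rose by 1.06 in Eµ-MTCP1 (SE 0.20, adjusted p = 0.00817) and by 1.04 in Eµ-TCL1 (SE 0.20, adjusted p = 0.00847). It was at 42.6 to 55.8 CPM in Eµ-MTCP1, 44.3 to 54.3 CPM in Eµ-TCL1 and 19.8 to 26.8 CPM in wildtype mice. Nme1, a nucleoside diphosphate kinase, rose by 0.78 (adjusted p = 0.0395) and 0.93 (adjusted p = 0.0189). Slc7a5, a transporter of large neutral amino acids, rose by 1.41 in Eµ-MTCP1 (SE 0.33, adjusted p = 0.0254), while 1.07 in Eµ-TCL1 did not pass (adjusted p = 0.0724). In Eµ-MTCP1 the calls of Nop16, Slc7a5 and Nme1 remained in 24, 17 and 15 of 28 alternatives, and in Eµ-TCL1 those of Nop16 and Nme1 in 22 and 23. Ncl (-0.07 and -0.07) and Odc1 (0.42 and 0.32), widely used readouts of MYC activity, were not called in either comparison.

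Of 6 genes that MYC is known to repress, 1 was lower in each leukemia, where 3.99% and 4.13% of tested genes were called lower. That was Gadd45a, a stress-induced brake on the cell cycle, at 9.84, 13.5 and 13.9 CPM in Eµ-MTCP1 mice and at 4.56, 15.7 and 9.80 CPM in Eµ-TCL1 mice, against 32.0, 31.6 and 34.3 CPM in wildtype mice. The wildtype mice lay above all transgenic mice. The differences were -1.39 (SE 0.38, adjusted p = 0.0474) and -1.70 (SE 0.39, adjusted p = 0.0212). On the gene count table the adjusted p was 0.0101 and 0.00246, and on the standard reference 0.00829 and 0.00307. On the coding reference, leaving out any 1 Eµ-MTCP1 or wildtype library, or C1594, raised the former to an adjusted p of 0.0592 to 0.153, and leaving out C1594 or any 1 wildtype library raised the latter to 0.0598 to 0.0712. Transcript length offsets also ended the former (-1.33, adjusted p = 0.0744), and the calls stood in 20 and 24 of 28 alternatives. Without the single libraries that ended the calls, the differences themselves stayed between -1.51 and -1.25 in the former and between -1.75 and -1.66 in the latter. Over all 28 alternatives they ran from -1.63 to -1.25 and, more widely, from -2.21 to -1.35. At an unadjusted p under 0.05 there were 4 and 3 of the 6, where 25% and 25.1% of all tested genes had such a p, and they pointed in both directions. Ndrg1, a stress- and hypoxia-induced gene, was at 15.4, 30.3 and 5.12 CPM in Eµ-MTCP1 mice, at 11.2, 4.54 and 45.4 CPM in Eµ-TCL1 mice and at 4.09, 4.23 and 4.53 CPM in wildtype mice. Every transgenic mouse lay above every wildtype mouse, B4437 only just, but the differences of 1.98 and 2.24 were not called (adjusted p = 0.16 and 0.116). The cell cycle inhibitors Cdkn1a (-1.02 in Eµ-MTCP1, adjusted p = 0.157, and 0.00 in Eµ-TCL1) and Cdkn1b (0.02 and -0.28) were not called. Cdkn2b, another inhibitor, was at 3 reads or fewer in wildtype mice, at 4 to 11 reads in Eµ-MTCP1 mice and at 3 to 44 reads in Eµ-TCL1 mice. It was not called on the coding reference (adjusted p = 0.176 in Eµ-MTCP1 and 0.055 in Eµ-TCL1) and was called higher in Eµ-TCL1 on the gene count table (adjusted p = 0.028).

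Cofactors held no call on the coding reference. This was so for 8 subunits of the SIN3 and histone deacetylase complex that the MXD proteins recruit, for 13 coactivators of MYC and for 14 regulators of MYC protein stability, in either comparison with wildtype. Median differences were -0.40 and -0.40, 0.09 and 0.19, and 0.04 and -0.13. Of all tested genes, 9.48% and 9.2% were called in these comparisons. At an unadjusted p under 0.05 the counts were 0 and 2, 1 and 1, and 2 and 1, where 25% and 25.1% of all tested genes had such a p. The standard reference called 1 of them, Ppp2r5a, a phosphatase subunit, higher in Eµ-TCL1 (0.63, adjusted p = 0.0488), where the coding reference gave -0.64. Protein levels of MYC were not measured.

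Of the 23 proliferation genes 2 were higher in Eµ-MTCP1, Mki67 (1.73, SE 0.46, adjusted p = 0.0409) and Tyms (1.58, SE 0.41, adjusted p = 0.0377), and 0 in Eµ-TCL1 (edgeR), where 5.49% and 5.07% of all tested genes were called higher. At an unadjusted p under 0.05 there were 11 and 2 of the 23, where 25% and 25.1% of all tested genes had such a p. Mki67, the marker of cycling cells, was at 200, 112 and 515 CPM in Eµ-MTCP1 mice, at 185, 222 and 175 CPM in Eµ-TCL1 mice and at 71.0, 105 and 74.0 CPM in wildtype mice. Z2641 stood far above every other mouse. Without it Mki67 was at 0.88 (adjusted p = 0.0831) and Tyms at 0.99 (adjusted p = 0.101), and neither was called. Most other single libraries also ended these calls when left out, 8 of 9 for Mki67 and 6 of 9 for Tyms in all, with adjusted p up to 0.16 for Mki67 and 0.142 for Tyms. In these other cases the difference stayed at 1.62 to 1.91 for Mki67 and 1.32 to 1.73 for Tyms, near the values with all libraries. Scaling by library size alone also ended both calls (Mki67 1.47, adjusted p = 0.0671, and Tyms 1.32, adjusted p = 0.0702), and each gene was called in 13 of 28 alternatives.

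No member of any of these lists was called between Eµ-TCL1 and Eµ-MTCP1, a comparison in which 5 of 11165 genes passed. The largest differences there among the network genes were those of Mxd3 (-1.22, SE 0.73, adjusted p = 0.827) and Mxd4 (-0.90, SE 0.51, adjusted p = 0.815), both lower in Eµ-TCL1. Their intervals, -2.85 to 0.40 and -2.04 to 0.23, hold 0 and also hold differences as large as those of Eµ-MTCP1 from wildtype.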

How the data were processed

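Per the labels, B cells were enriched from spleens, and RNA was amplified (SMARTer v4) and sequenced. The authors used Salmon 1.0.0 to obtain estimated counts and TPM of transcripts, on a standard mouse reference and on one with human MTCP1 and TCL1 added. Whole-number counts per gene were deposited by the authors, whose notes name HISAT2 2.0.6 and featureCounts. Log2-like normalized values of the transgenes are the authors' own (DESeq2). Columns of fold changes and p-values were not used.

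Here estimated counts of the transgene-bearing reference were summed per gene with GENCODE M21 (the methods state another release; 442 transcripts without a match, at most 0.291% of reads, were left out) and rounded. All 9 libraries entered 1 edgeR 4.0.16 fit (filterByExpr, TMM factors, quasi-likelihood F test, two-sided, Benjamini-Hochberg over 11165 genes, threshold 0.05). An SE is the size of the log2 fold change divided by the square root of F, and intervals are at 95%. Transcript shares were compared by exact permutation. The script was tested on simulated data. P-values measure the spread between mice. Genes named were all members, all other network members, per list up to 4 called genes with the smallest p and a few fixed readouts, and the genes nearest to each member. Members and lists were chosen with earlier results of these data known. DESeq2 1.42.0, other scalings, filters and count tables, and leaving out each library were alternatives. On the gene count table, DESeq2 and leaving out single libraries were added after seeing the data, as was the standard reference without Z2755, the library sequenced on another lane.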

Additional observations from a re-analysis of the deposited data

How the results depend on the processing

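The count of network genes called between Eµ-MTCP1 and wildtype was 0 with all libraries and 1 with DESeq2 (Mxd3). Leaving out 1 library gave 0 to 1 on the coding reference and on the gene count table: Myc without Z2551, Mxd3 without Z2606 and Mxd4 without Z2641, on both. Of all genes, these fits called 599 of 11470, 943 of 11458 and 890 of 11440 on the coding reference. On the gene count table they called 857 of 15202, 1345 of 15134 and 1228 of 15093. The count of network genes was 0 in both other comparisons under every alternative run. Of the genes called on the coding reference and named here, none changed sign under an alternative, while Ppp2r5a, called in Eµ-TCL1 on the standard reference, was below 0 on both other sets of counts. Max, Mxd1, Mnt and Mlx changed sign in some alternatives and are given no direction. Mxi1 turned above 0 without Z2755 (0.72 in Eµ-MTCP1 and 0.95 in Eµ-TCL1) and changed sign in 16 of 28 between the leukemias, and Mxd4 changed sign in 17 of 28 for Eµ-TCL1 against wildtype. With library sizes alone as scaling, the median of all genes shifted to -0.26 in Eµ-MTCP1 and -0.15 in Eµ-TCL1 and turned the split of calls in Eµ-MTCP1 from 613 higher and 446 lower to 391 and 730, and in Eµ-TCL1 from 566 and 461 to 446 and 593. Over all genes, calls in Eµ-MTCP1 rose from 1059 to 1646 with DESeq2 and fell to 525 without Z2754, 567 without Z2755 and 599 without Z2551. In Eµ-TCL1 they rose from 1027 to 1695 and fell to 517 without Z2754, 550 without Z2755 and 658 without C1594. Between the leukemias they were 5, 73 with DESeq2 and 16 with no filter on low counts. No paired analysis was run, since each library came from a different mouse and no pairing of mice was given. The depth limits Mxd1, Mxd3, Mxi1 and Mnt, with 3 to 72 reads per library on the coding reference. The cause of these shifts was not tested beyond the fewer libraries or reads that the alternatives hold.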

Other observations

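In Eµ-MTCP1 mice, Z2551 departed from the other members of its group in Myc (252 CPM against 104 and 93.8) and Mxd1 (1.64 against 6.53 and 8.42), Z2606 in Mxd3 (1.85 against 6.56 and 9.08) and Mnt (2.84 against 5.58 and 7.60), and Z2641 in Mxd4 (6.94 against 38.2 and 26.7). These genes were picked after their values were seen, and with 3 mice some gene can set any of them apart. Groups of 3 are too small for a test of single mice, and these values are given as they stand. Z2641 also had the highest summed proliferation genes, 3518 CPM, the lowest Myc and, among Eµ-MTCP1 mice, the highest myeloid markers, 2064 CPM. Mycn passed the authors' coverage filter in 3 of 9 libraries, while the other 8 network genes passed in 9 of 9.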
